A study of Mus musculus with 6 samples.

Results

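The genes described here are the 10 members of the AP-1 and Egr families of immediate early transcription factors, which are Fos, Fosb, Fosl1, Fosl2, Jun, Junb, Jund, Egr1, Egr2 and Egr3. They were chosen by symbol, each symbol was matched to 1 NCBI gene ID of the deposited tables, and all 10 were found among the 27179 genes listed. RNA was sequenced from 3 mouse embryonic fibroblast cell lines, with 2 libraries of each line made from separate RNA preparations of cells growing in medium with fetal bovine serum. The parental CPN-/- cell line is labelled -/- for Cry1, Cry2, Per1, Per2, Nr1d1 and Nr1d2 and described as without their proteins, which are circadian repressors. The lines CPN-/- CRY1 and CPN-/- CRY2 were derived from it and express mouse Cry1 or Cry2 cDNA from a viral promoter, and their libraries are also given as those with CRY1 or with CRY2. Each of the CRY lines was grown from 1 selected colony, so that an effect of CRY cannot be told apart from a difference between clones, and the libraries are single harvests with no time course or stimulus. The study compared each CRY line with CPN-/- to learn which transcripts CRY proteins affect without PER and NR1D. The comparison of the 2 CRY lines with each other was added here.

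AP-1 is a dimer of leucine zipper proteins, in which a Jun protein pairs with a Fos protein, with another Jun or with a relative of the ATF or Maf groups. Jun proteins can pair with each other, whereas Fos proteins need a partner. Egr proteins are zinc finger factors that bind GC-rich sites on their own and are held back by the corepressors Nab1 and Nab2. Most of these genes are transcribed within minutes when serum or growth factors reach a resting fibroblast, through SRF and its Elk partners, CREB and the MAP kinases, and their mRNAs decay quickly. Fosl1, Fosl2 and Jund are the members best known for steady expression in growing cells.

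The libraries held 25957409 to 36106949 counts. Cry1 and Cry2 were each highest in the line labelled as expressing it: Cry1 was measured at 125 and 115 CPM (read counts scaled to a common library size by TMM) in the CPN-/- libraries, at 165 and 190 with CRY1 and at 51.0 and 48.3 with CRY2, and Cry2 at 136 and 129, at 50.7 and 51.7 and at 349 and 351. CPN-/- thus had counts of both genes, above those of Cry1 with CRY2 and of Cry2 with CRY1, so that transcript counts did not show the labelled loss of either gene. Of 10 fibroblast markers, 8 were above 10 CPM in every library, Col3a1 lay around that level and Thy1 at most at 0.23, and the list summed to between 12500 and 20140 CPM. The summed levels were at most 1.08 CPM for 6 epithelial, 1.04 for 5 endothelial, 2.37 for 6 leukocyte, 2.03 for 4 skeletal muscle and 0.499 for 4 neural markers. In bulk RNA, fewer cells with a transcript and less transcript per cell cannot be told apart.

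All 10 members passed the filter on low counts, and 14069 genes were tested. Levels of different genes were compared only as CPM per kilobase of the longest coding transcript. On this scale the Jun genes stood highest, with Jund between 53.1 and 66.4, Jun between 37.8 and 56.6 and Junb between 21.8 and 66.2 over the 6 libraries. Next came Fosl1, between 19.0 and 24.3, Fosl2, between 11.99 and 22.3, and Egr1, between 3.67 and 18.8. Fos lay between 0.671 and 2.55. Egr2 lay between 0.148 and 0.602, Fosb between 0.263 and 0.490 and Egr3 between 0.0702 and 0.151. The ranges of neighbours in this order overlapped, from Jund down to Egr1 and between Egr2 and Fosb. Fos lay below every Egr1 value and above every Egr2 value, and Egr3 lay below every Fosb value. Fosb, Egr2 and Egr3 rested on few reads, between 30 and 59, between 14 and 55 and between 8 and 16 counts per library.

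**Figure D1:**
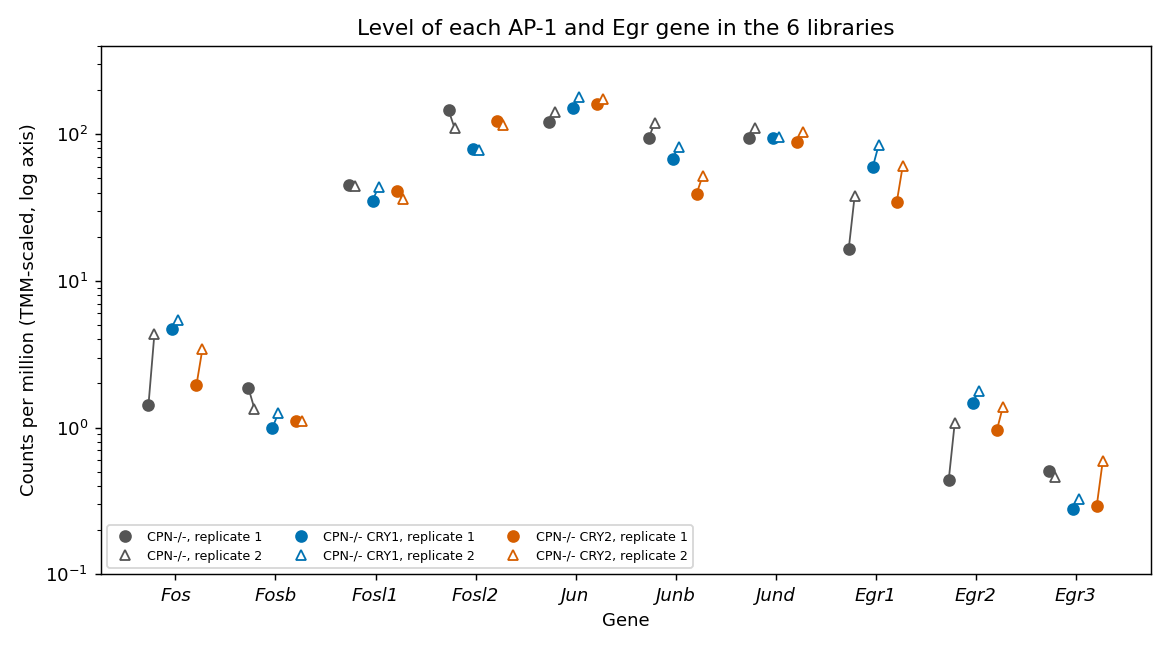
CPM of each gene (log axis, TMM-scaled) in the 6 libraries, with circles for replicate 1 and triangles for replicate 2 of each line, joined by a line. The CPN-/- CRY1 libraries are lowest for Fosl2 (79.4 and 78.4), the CPN-/- CRY2 libraries are lowest for Junb (39.4 and 52.1), and the libraries of a line lie far apart for Fos and Egr1.

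Junb and Fosl2 were the members that passed the test, and each did so in 1 of the CRY lines against CPN-/-. In CPN-/- CRY1 against CPN-/-, 1 of the 10 members was called, Fosl2, lower, by edgeR's quasi-likelihood test at a Benjamini-Hochberg adjusted p under 0.05 over all genes tested. Of all genes, 24.3% were called in this comparison, 11.2% higher and 13.1% lower. In CPN-/- CRY2 against CPN-/-, 1 of the 10 was called, Junb, lower, where 6.66% of all genes were called, 2.58% higher and 4.08% lower. In CPN-/- CRY1 against CPN-/- CRY2, 2 of the 10 were called, Junb higher and Fosl2 lower, where 16.3% of all genes were called, 7.72% higher and 8.57% lower. For a list of 10 genes, counts of 1, 1 and 2 are close to what these shares of all genes give. An unadjusted p under 0.05 was reached by 5, 2 and 2 members in these comparisons. The first 2 comparisons share the CPN-/- libraries and are given side by side.

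The members lay on both sides of 0 in each comparison. In CPN-/- CRY1 against CPN-/-, 4 log2 fold changes were above 0 and 6 below, with a median of -0.15 against -0.01 for all genes and a median size of 0.60 against 0.30. In CPN-/- CRY2 against CPN-/-, 3 were above and 7 below, with a median of -0.11 against -0.01 and a median size of 0.28 against 0.22. Between the CRY lines, 6 were above and 4 below, with a median of 0.03 against -0.01 and a median size of 0.52 against 0.22. The CPM of the libraries did not overlap between the lines for 9, 4 and 4 of the 10 members, and for 66.9%, 55.1% and 73.3% of all genes.

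**Figure D2:**
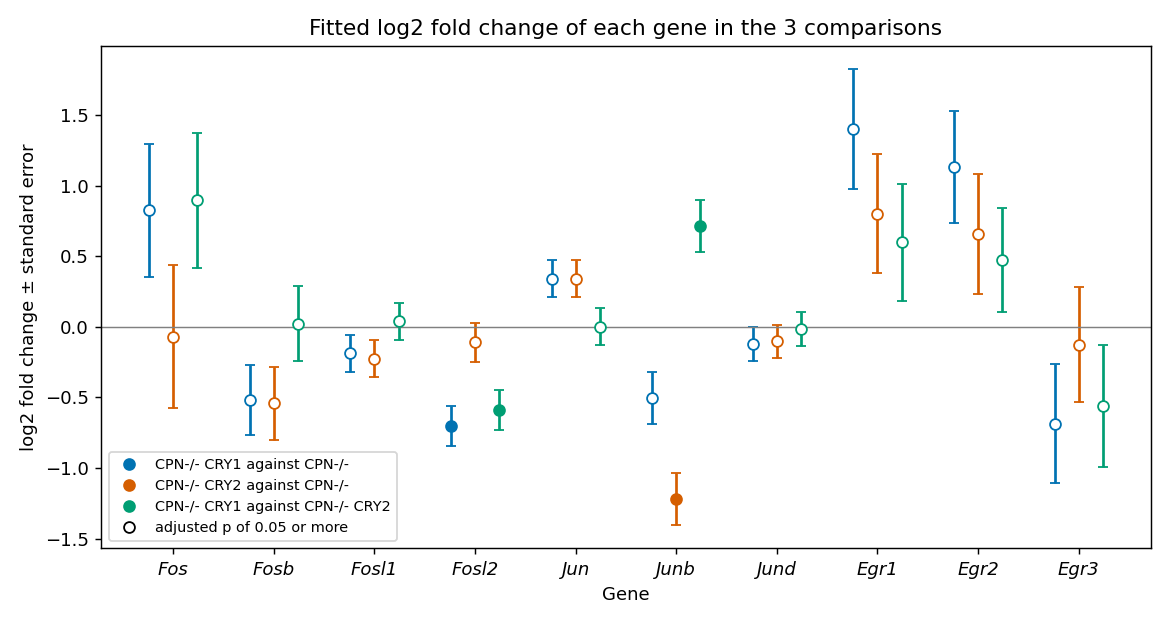
Fitted log2 fold change of each gene with its standard error in the 3 comparisons, with filled points at an adjusted p under 0.05. Filled points are Fosl2 in CPN-/- CRY1 against CPN-/- (-0.70), Junb in CPN-/- CRY2 against CPN-/- (-1.22), and both between the CRY lines (-0.59 and 0.72), while Egr1 and Egr2 have higher values in CPN-/- CRY1 with wide errors.

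Junb (gene ID 16477, mm10 chr8:84976909-84978748, minus strand, 1 exon) encodes a Jun protein that activates less strongly than Jun in many settings and can hold it back in a dimer. It was measured at 93.6 and 119.8 CPM in the CPN-/- libraries, at 68.3 and 82.1 with CRY1 and at 39.4 and 52.1 with CRY2. The 3 lines did not overlap, with CPN-/- highest and CPN-/- CRY2 lowest. Junb fell 2.33-fold in CPN-/- CRY2 against CPN-/- (log2 fold change -1.22, SE 0.19, adjusted p = 0.0118), and 4.41% of all genes had a larger size of change there. In CPN-/- CRY1 against CPN-/- the log2 fold change was -0.50 (SE 0.18, adjusted p = 0.0865). Junb passed there by the DESeq2 Wald test (-0.50, adjusted p = 0.0459) and with the replicate number added to the edgeR fit (-0.50, adjusted p = 0.0164). The 2 CRY lines differed from each other by 0.72 (SE 0.19, adjusted p = 0.0421), 1.64-fold higher in CPN-/- CRY1. The call against CPN-/- was lost without CPN-/- replicate 2 (-1.03, adjusted p = 0.108) and without replicate 1 (-1.03, 0.115) or 2 (-1.43, 0.0506) of CPN-/- CRY2. The call between the CRY lines was lost without any single library of the 6, with values from 0.53 to 0.93 and adjusted p from 0.0937 to 0.274, and in the fit of the 4 compared libraries (0.72, adjusted p = 0.0782). Junb shares 173 exonic bases with the opposite-strand Prdx2, a peroxiredoxin gene, which was not called in any comparison. The log2 fold change of Prdx2 was -0.505 (adjusted p = 0.0916) in CPN-/- CRY1 and -0.338 (0.302) in CPN-/- CRY2 against CPN-/-. Between the CRY lines it was -0.166 (0.617). The part of Prdx2 reads in the Junb values was not tested.

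Jun (gene ID 16476, mm10 chr4:95049036-95052222, minus strand, 1 exon), the target of JNK kinases and the strongest activator of its family, was measured at 120.5 and 142 CPM in the CPN-/- libraries, at 152 and 181 with CRY1 and at 159.5 and 173 with CRY2. Every library of the CRY lines was above both CPN-/- libraries, and the CRY lines overlapped each other. The log2 fold change was 0.34 (SE 0.13) in each CRY line against CPN-/-, with adjusted p = 0.0989 in CPN-/- CRY1 and 0.177 in CPN-/- CRY2. Jun passed the test in both with the length trend of each library removed (0.35 and 0.36, adjusted p = 0.0296 and 0.0481). Its values were 0.23 and 0.23 without CPN-/- replicate 1 and 0.47 and 0.47 without replicate 2, in fits that leave 1 CPN-/- library. Jun shares 232 exonic bases with Junos on the opposite strand, which was not analysed here. The fit with the length trend removed and those without a CPN-/- library also called many more genes in all, as given with the spread of the CPN-/- libraries.

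Jund (gene ID 16478, mm10 chr8:70697739-70700616, plus strand, 1 exon), a Jun gene known for steady expression, was measured at 94.9 and 111 CPM in the CPN-/- libraries, at 93.9 and 95.3 with CRY1 and at 88.6 and 103 with CRY2. The 3 lines overlapped. The log2 fold changes were -0.12 (SE 0.12) and -0.10 (SE 0.12) against CPN-/-, with adjusted p = 0.479 and 0.609. Without CPN-/- replicate 1 they were -0.23 and -0.21, and without replicate 2 they were 0.00 and 0.02. Each of these fits leaves 1 CPN-/- library and so does not measure the spread between the CPN-/- libraries. Jund shares 877 exonic bases with Gm11175 on the opposite strand, which was not analysed here.

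As a share of the 3 Jun transcripts per kilobase, Junb made up 35.3% and 37.4% in the CPN-/- libraries, 26.7% and 28.5% with CRY1 and 17.4% and 19.9% with CRY2. Jun made up 25.8% and 25.1%, then 33.6% and 35.6%, then 40.1% and 37.5%. Jund made up between 35.9% and 42.6% in every library. The order of the 3 genes thus differed between the lines, with Junb above Jun in both CPN-/- libraries and below it in all 4 libraries of the CRY lines. The shares add up to the whole, so that a lower share of 1 gene raises those of the others.

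**Figure D3:**
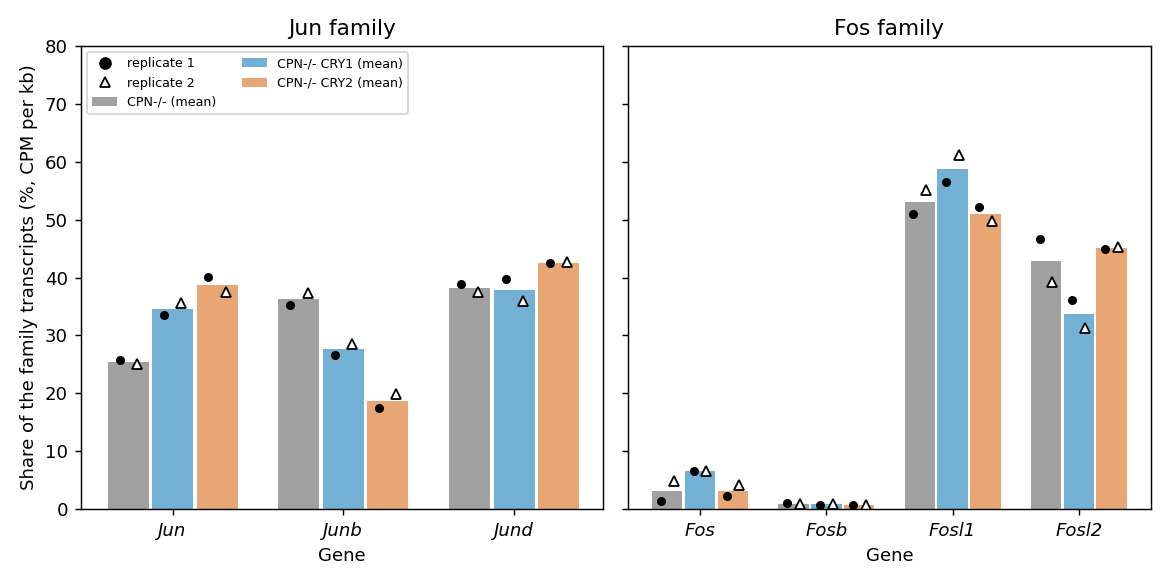
Share (%) of each gene in the summed CPM per kilobase of the Jun family and of the Fos family, with bars for the mean of a line, circles for replicate 1 and triangles for replicate 2. The Junb share is 36.4% in the parental line, 27.6% with CRY1 and 18.7% with CRY2, and Fosl1 with Fosl2 makes up most of the Fos family in every line.

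Fosl2 (gene ID 14284, mm10 chr5:32136472-32157840, plus strand, 4 exons), also called Fra-2, encodes a Fos protein without the strong activation domain of Fos. It was measured at 146 and 110.5 CPM in the CPN-/- libraries, at 79.4 and 78.4 with CRY1 and at 123 and 115 with CRY2. The CPN-/- CRY1 libraries were below the other 4, and CPN-/- and CPN-/- CRY2 overlapped. Fosl2 fell 1.63-fold in CPN-/- CRY1 against CPN-/- (log2 fold change -0.70, SE 0.14, adjusted p = 0.0149), a size that 17.1% of all genes exceeded. In CPN-/- CRY2 against CPN-/- the value was -0.11 (SE 0.14, adjusted p = 0.642). CPN-/- CRY1 was 1.51-fold below CPN-/- CRY2 (log2 fold change -0.59, SE 0.14, adjusted p = 0.0326). The call against CPN-/- was lost without replicate 1 (-0.71, adjusted p = 0.12) or 2 (-0.69, 0.13) of CPN-/- CRY1, and the call between the CRY lines was lost without any 1 of their 4 libraries (-0.64 to -0.54, adjusted p from 0.159 to 0.224).

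Fosl2 has the longest transcript of the 10, at 6537 bases, and the CPN-/- libraries differed from each other along transcript length. With the length trend of each library removed, its log2 fold change against CPN-/- was -0.95 with CRY1 and -0.33 with CRY2, which then passed (adjusted p = 0.00503). In CPN-/- CRY2 against CPN-/-, the Fosl2 value was -0.29 without CPN-/- replicate 2 and 0.11 without replicate 1, in fits that leave 1 CPN-/- library.

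Fosl1 (gene ID 14283, mm10 chr19:5447698-5455938, plus strand, 4 exons), or Fra-1, is a Fos gene that AP-1 itself and growth factor signalling maintain in growing fibroblasts. Its levels were 45.4 and 44.4 CPM in the CPN-/- libraries, at 35.3 and 43.6 with CRY1 and at 40.8 and 35.9 with CRY2. Both CPN-/- libraries were above the other 4, by little in the case of CPN-/- CRY1. The log2 fold changes were -0.19 (SE 0.13, adjusted p = 0.316) and -0.23 (SE 0.13, adjusted p = 0.321). The genes of chromosome 19 had a median of 0.31 in CPN-/- CRY1 against CPN-/-, -0.17 in CPN-/- CRY2 against CPN-/- and 0.46 between the CRY lines, so that Fosl1 lay 0.50 below, 0.06 below and 0.42 below its chromosome. The part of the chromosome in the Fosl1 values was not tested. Fosl1 also shares 1163 exonic bases with Ccdc85b on the opposite strand, and Ccdc85b fell in both CRY lines (-0.40, adjusted p = 0.0486, and -0.56, adjusted p = 0.0405).

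Fos (gene ID 14281, mm10 chr12:85473890-85477274, plus strand, 4 exons), the prototype of the immediate early genes, was measured at 1.42 and 4.38 CPM in the CPN-/- libraries, at 4.68 and 5.38 with CRY1 and at 1.95 and 3.45 with CRY2. Both CPN-/- CRY1 libraries were above the other 4, whereas the CPN-/- CRY2 libraries fell between those of CPN-/-. The log2 fold changes were 0.83 (SE 0.47, adjusted p = 0.228) in CPN-/- CRY1 against CPN-/-, -0.07 (SE 0.51, adjusted p = 0.94) in CPN-/- CRY2 against CPN-/- and 0.90 (SE 0.48, adjusted p = 0.26) between the CRY lines. The values against CPN-/- moved with the libraries used. Without CPN-/- replicate 2, Fos was called higher in CPN-/- CRY1 (1.83, adjusted p = 1.19e-06) and in CPN-/- CRY2 (0.94, adjusted p = 0.0205). Without CPN-/- replicate 1, the value was 0.20 (adjusted p = 0.438) in CPN-/- CRY1, and Fos was called lower in CPN-/- CRY2 (-0.70, adjusted p = 0.0146). The value in CPN-/- CRY2 was 0.28 without replicate 1 and -0.54 without replicate 2 of that line, and 0.07 with the length trend removed, none of which passed. Between the CRY lines, Fos was called at 0.90 in the edgeR fit of those 4 libraries alone (adjusted p = 0.0003). That fit called 49.7% of all genes, against 16.3% in the fit of all 6 libraries. The value was 0.90 and 0.89 when CPN-/- replicate 1 or 2 was left out.

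Fosb (gene ID 14282, mm10 chr7:19302696-19310118, minus strand, 4 exons), a Fos gene with a truncated form known from the brain, was near 1 CPM in every library. It was measured at 1.86 and 1.34 CPM in the CPN-/- libraries, at 0.996 and 1.27 with CRY1 and at 1.10 and 1.11 with CRY2. Both CPN-/- libraries were above the other 4. The log2 fold changes were -0.52 (SE 0.25, adjusted p = 0.165) and -0.54 (SE 0.26, adjusted p = 0.247). That in CPN-/- CRY1 was -0.72 without CPN-/- replicate 2, in a fit that leaves 1 CPN-/- library.

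Per kilobase, Fosl1 and Fosl2 together made up the greater part of the Fos family transcripts in every library. The Fosl1 share was 50.9% and 55.2% in the parental line, 56.5% and 61.1% with CRY1 and 52.2% and 49.7% with CRY2. The Fosl2 share was 46.7% and 39.2%, then 36.2% and 31.4%, then 44.9% and 45.3%. Fos held 1.40% and 4.81% in the parental line, 6.61% and 6.68% with CRY1 and 2.20% and 4.22% with CRY2, and Fosb held between 0.695% and 1.03% in all libraries. The summed Fos family was at 47.8 and 43.2 CPM per kilobase in the parental line, 33.6 and 38.3 with CRY1 and 41.9 and 38.8 with CRY2, against 125 to 177 for the summed Jun family.

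Egr1 (gene ID 13653, mm10 chr18:34861207-34864956, plus strand, 2 exons), the main growth factor-induced Egr gene of fibroblasts, was measured at 16.4 and 38.2 CPM in the CPN-/- libraries, at 59.6 and 84.4 with CRY1 and at 34.3 and 60.6 with CRY2. Both CPN-/- CRY1 libraries were above both CPN-/- libraries, and CPN-/- CRY2 overlapped with each of the other lines. The log2 fold change was 1.40 (SE 0.43, adjusted p = 0.0536) in CPN-/- CRY1 against CPN-/-, a size that 5.15% of all genes exceeded. It was 0.80 (SE 0.42, adjusted p = 0.283) in CPN-/- CRY2 against CPN-/- and 0.60 (SE 0.42, adjusted p = 0.395) between the CRY lines. With 1 library left out at a time, the first value lay between 0.91, without CPN-/- replicate 1, and 2.13, without CPN-/- replicate 2, and was not called.

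Egr2 (gene ID 13654, mm10 chr10:67534469-67542188, plus strand, 2 exons), known from hindbrain and Schwann cell development, had the same order of the lines at low counts. It was measured at 0.440 and 1.08 CPM in the CPN-/- libraries, at 1.47 and 1.78 with CRY1 and at 0.955 and 1.37 with CRY2. The CPN-/- CRY1 libraries were above the other 4. The log2 fold changes were 1.14 (SE 0.40, adjusted p = 0.0783) in CPN-/- CRY1 and 0.66 (SE 0.43, adjusted p = 0.366) in CPN-/- CRY2 against CPN-/-. Without CPN-/- replicate 2 they were 1.87 and 1.40, and without CPN-/- replicate 1 they were 0.59 and 0.11, in fits that leave 1 CPN-/- library. In CPN-/- CRY1, Egr2 passed with no filter on low counts (1.14, adjusted p = 0.0431) and with the length trend removed (1.17, adjusted p = 0.0296).

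Egr3 (gene ID 13655, mm10 chr14:70077317-70082613, plus strand, 2 exons), best known from muscle spindles and lymphocytes, was at 0.503 and 0.461 CPM in the CPN-/- libraries, at 0.277 and 0.324 with CRY1 and at 0.294 and 0.593 with CRY2. Its log2 fold changes were -0.69 (SE 0.42, adjusted p = 0.259) and -0.13 (SE 0.41, adjusted p = 0.862) against CPN-/-. Neither passed, on 8 to 16 counts per library. Egr1 made up between 93.0% and 96.5% of the Egr transcripts per kilobase in every library.

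The members with the widest spread between the CPN-/- libraries were Fos, Egr1 and Egr2. Each was lower in replicate 1 than in replicate 2 of every line, as were Jun, Junb and Jund. In CPN-/- the difference in log2(CPM + 0.5) between replicate 2 and replicate 1 was 1.35 for Fos, 1.19 for Egr1 and 0.74 for Egr2, where the SD of this difference over all genes was 0.38. In CPN-/- CRY2 it was 0.69, 0.81 and 0.36 for an SD of 0.16, and in CPN-/- CRY1 it was 0.18, 0.50 and 0.22 for an SD of 0.15. Fosl2 went the other way in CPN-/-, at -0.40. Replicate 2 was the higher library for 6, 9 and 8 of the 10 members in CPN-/-, CPN-/- CRY1 and CPN-/- CRY2, and for 47.7%, 48.4% and 50.2% of all genes.

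**Figure D4:**
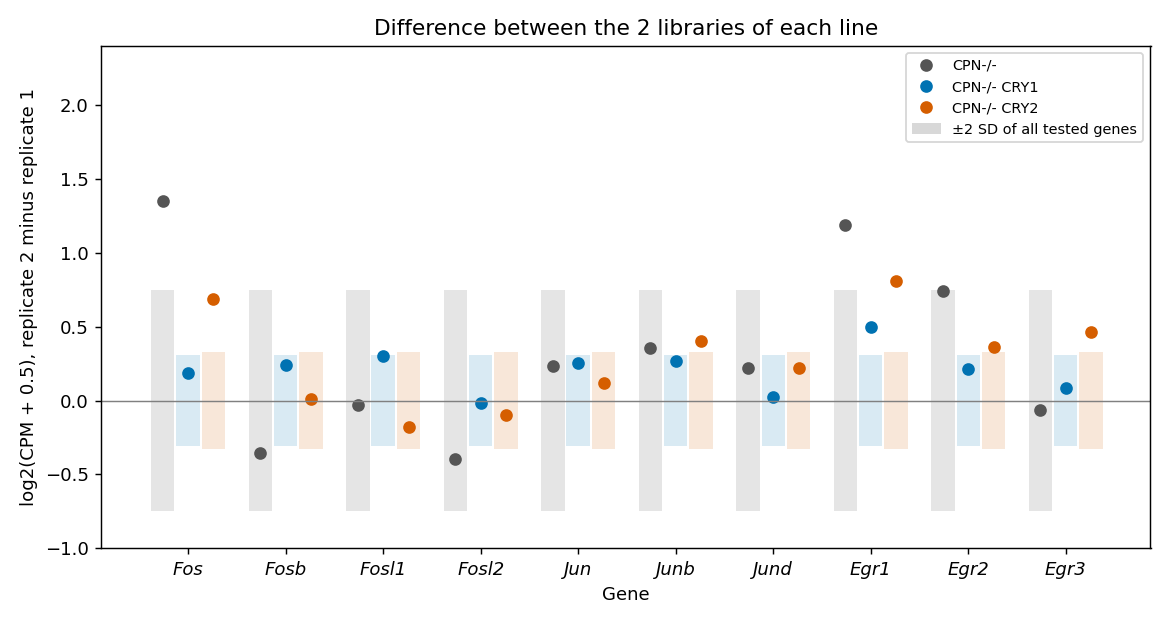
Difference in log2(CPM + 0.5) between replicate 2 and replicate 1 of each line for the 10 genes, with shaded bars of 2 SD of all tested genes to either side of 0. In CPN-/-, the Fos (1.35) and Egr1 (1.19) points lie above the bars and Egr2 (0.74) at their edge, and in CPN-/- CRY2 Fos, Junb, Egr1, Egr2 and Egr3 do.

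Among 23 other immediate early genes tested, replicate 2 was the higher library for 18 in CPN-/-, 20 in CPN-/- CRY1 and 17 in CPN-/- CRY2, with no test of these counts. Ier2, a serum-induced nuclear protein gene named here after its values were seen, was at 31.4 and 64.1 CPM in the CPN-/- libraries, at 52.3 and 62.1 with CRY1 and at 41.0 and 58.2 with CRY2. Dusp1, a phosphatase that switches off MAP kinases, was at 22.9 and 40.2, then 66.9 and 87.5, then 44.5 and 55. In each line replicate 1 was the lower library of both genes, as for Fos and Egr1. Whether the moment of harvest, the medium or the RNA preparation goes with it was not tested.

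The CPN-/- libraries also differed from each other along transcript length, with a Spearman correlation of -0.72 over 12478 genes between length and the difference of replicate 2 and replicate 1, against 0.21 in CPN-/- CRY1 and -0.30 in CPN-/- CRY2. Genes with transcripts under 2500 bases, as that of Fos with 2108, had a median difference of 0.24 in CPN-/-. The part of transcript length in the values of single members was not tested beyond the fit with the length trend removed. Leaving out CPN-/- replicate 1 or 2 raised the number of genes called in CPN-/- CRY1 against CPN-/- from 3423 to 8980 or 6360, and in CPN-/- CRY2 against CPN-/- from 937 to 8046 or 3185. The fit with the length trend removed kept only the 12478 genes with a known length. It called 43.1% of them in CPN-/- CRY1 against CPN-/- and 19.3% in CPN-/- CRY2 against CPN-/-. In the fit of 14069 genes without that step, these shares were 24.3% and 6.66%. Of the genes called in CPN-/- CRY2 against CPN-/-, 51.0% were higher with the trend removed, against 38.7% without that step.

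**Figure D5:**
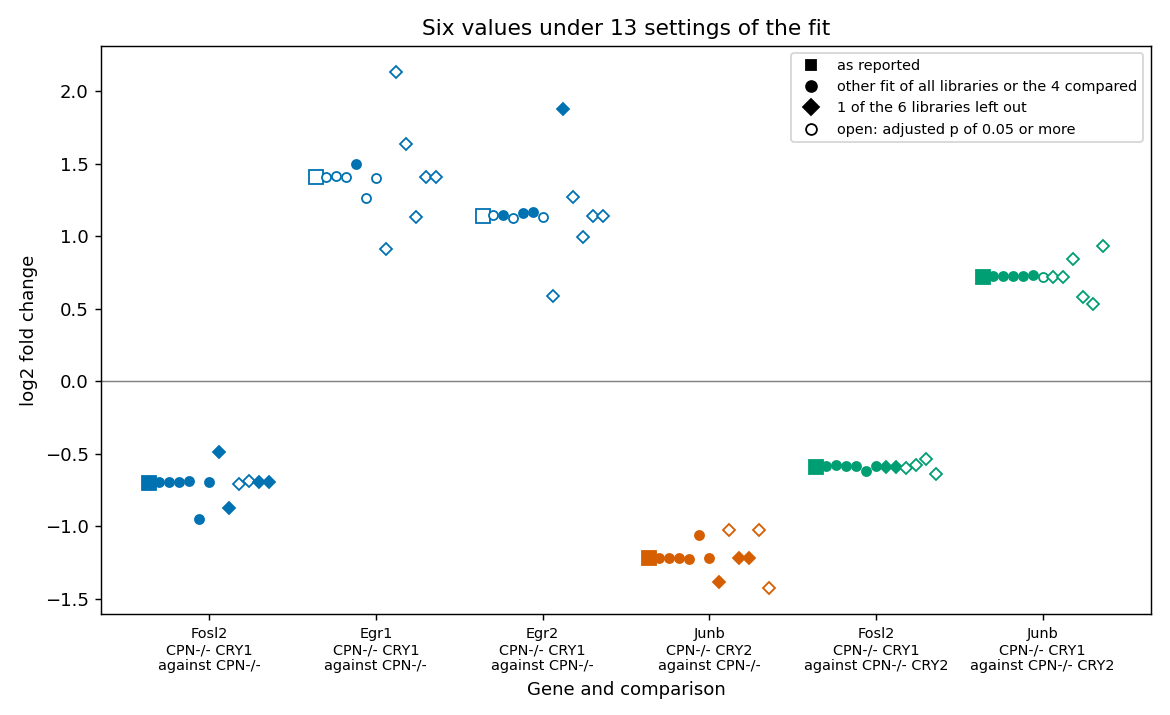
log2 fold change of 6 member values as reported (squares), in 6 other fits (circles) and with each of the 6 libraries left out (diamonds), filled where the adjusted p is under 0.05. Directions stay on 1 side of 0 for all 6, and the points of Fosl2 and Junb are open in fits without a library of the CRY lines compared, and for Junb also in some others.

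The promoters of the members that passed, Fosl2 and Junb, are shown with those of Jun, whose levels went the other way from Junb, and of Fos and Egr2, which varied most between libraries along with Egr1. RefSeq promoter windows of 300 bases (250 before the start and 50 after, GRCm38.p6) were searched for 7 of the 10 members, with 5 windows for Egr2. No window of Fosl1, Egr1 or Egr3 was searched. Each line gives the 150 bases before the annotated start and the 10 after it, 5′ to 3′ on the strand of the gene, with motif matches in capitals.
Fos chr12:85473740-85473899, plus strand: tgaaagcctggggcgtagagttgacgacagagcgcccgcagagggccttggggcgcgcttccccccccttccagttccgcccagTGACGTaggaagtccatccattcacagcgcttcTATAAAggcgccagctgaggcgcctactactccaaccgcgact
Fosl2 chr5:32136322-32136481, plus strand: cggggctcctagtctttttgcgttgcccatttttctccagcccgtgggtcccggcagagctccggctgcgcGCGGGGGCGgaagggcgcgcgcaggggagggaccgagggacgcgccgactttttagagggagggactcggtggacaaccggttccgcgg
Jun chr4:95052213-95052372, minus strand: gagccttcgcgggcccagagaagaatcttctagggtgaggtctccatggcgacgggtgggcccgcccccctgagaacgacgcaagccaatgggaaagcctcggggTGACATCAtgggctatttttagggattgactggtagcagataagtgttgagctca
Junb chr8:84978739-84978898, minus strand: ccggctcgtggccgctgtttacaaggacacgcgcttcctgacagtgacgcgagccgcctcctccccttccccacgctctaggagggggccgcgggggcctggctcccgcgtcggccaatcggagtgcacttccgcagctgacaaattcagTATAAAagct
Egr2 chr10:67537719-67537878, plus strand: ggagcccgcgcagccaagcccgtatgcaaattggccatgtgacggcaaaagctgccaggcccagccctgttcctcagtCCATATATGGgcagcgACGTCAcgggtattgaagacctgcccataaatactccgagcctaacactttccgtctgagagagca

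Motifs were searched on both strands of the whole windows and are descriptions of letters, not of binding. The CArG box of SRF was found in 1.63% of all 32817 windows, the CRE of CREB and ATF factors (TGACGTCA) in 1.79% and its core (TGACGT, which the CRE contains) in 7.51%, the AP-1 site (TGACTCA or, read from the other strand, TGAGTCA) in 5.20%, its variant TGACATCA in 3.62%, the E-box of CLOCK-BMAL1 (CACGTG) in 7.15%, the Egr site (GCGTGGGCG or GCGGGGGCG) in 3.47% and TATAAA in 13.6%. The Fos window held TGACGT at 66 to 61 bases before the start and TATAAA at 33 to 28. The Fosl2 window held GCGGGGGCG at 79 to 71 bases before the start, and Fosb held it at 50 to 42. The Jun window held TGACATCA at 45 to 38 bases before the start, a variant through which Jun is known to act on its own gene. In the Junb window TATAAA began at the annotated start, and the Jund window held none of the motifs. The Egr2 window shown held a CArG box at 72 to 63 bases before the start and TGACGT on the opposite strand at 56 to 51, and 2 windows that overlap it held the same letters. Another Egr2 window, which does not overlap it, held a different CArG box, CCTTTTTTGG, at 72 to 63 bases before its own start. The E-box was found in 1 of the 5 Egr2 windows, the most upstream of them, at 27 to 22 bases before the start of that window's transcript. It was in no window of the other members that were searched.

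Of the other AP-1 partners, 9 of 12 were tested, and 1 was called higher and 1 lower in CPN-/- CRY1 against CPN-/-, 1 higher in CPN-/- CRY2 against CPN-/-, and 1 higher and 1 lower between the CRY lines. For this list and those that follow, the shares of all genes called are 11.2% higher and 13.1% lower in CPN-/- CRY1 against CPN-/-, 2.58% and 4.08% in CPN-/- CRY2 against CPN-/-, and 7.72% and 8.57% between the CRY lines, and the median log2 fold change of all genes is -0.01 in each. The AP-1 partners had medians of 0.06, -0.04 and 0.00. The stress-induced Atf3, which can pair with Jun proteins, was at 7.04 and 9.36 CPM in the CPN-/- libraries, at 4.26 and 4.15 with CRY1 and at 5.00 and 5.52 with CRY2, and fell in CPN-/- CRY1 (log2 fold change -0.96, adjusted p = 0.0108). Mafk, a small Maf protein without an activation domain, rose there from 24.5 and 23.5 to 45.1 and 48.2 CPM (0.96, adjusted p = 0.00134). Maf rose in CPN-/- CRY2, from 2.11 and 1.34 to 7.35 and 8.38 CPM (2.17, adjusted p = 0.00344), and stood at 0.802 and 1.07 in CPN-/- CRY1. Between the CRY lines, Mafk was higher in CPN-/- CRY1 (0.81, adjusted p = 0.0029) and Maf was lower there (-3.08, adjusted p = 0.000674).

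Of 12 SRF and CREB factors upstream of the members, 2 were called higher and 1 lower in CPN-/- CRY1, where 24.3% of all genes were called, 0 in CPN-/- CRY2 and 1 lower between the CRY lines, with medians of 0.29, 0.18 and -0.09. Where edgeR called 0, 2 had an unadjusted p under 0.05 and DESeq2 called 1. Srf, which binds the CArG box, rose in CPN-/- CRY1 from 90.3 and 92.4 to 114 and 127 CPM (log2 fold change 0.40, adjusted p = 0.0251), as did its partner Elk1 (0.38, adjusted p = 0.0497), while the CREB coactivator Crtc2 fell (-0.44, adjusted p = 0.0172). Of 13 MAP kinase genes, 2 were called higher and 1 lower in CPN-/- CRY1, 1 lower in CPN-/- CRY2 and 1 higher between the CRY lines, with medians of 0.22, 0.00 and 0.19. Map2k4, a JNK kinase activator, rose in CPN-/- CRY1 from 72.6 and 63.1 to 86.3 and 89.6 CPM (0.37, adjusted p = 0.0404), and Rps6ka1 fell (-0.46, adjusted p = 0.0456). Map2k1, a MAP kinase kinase, fell in CPN-/- CRY2 (-0.44, adjusted p = 0.0398). Of the Egr corepressors, Nab1 rose in CPN-/- CRY1 (0.40, adjusted p = 0.0446) and was higher there than in CPN-/- CRY2 (0.43, adjusted p = 0.0443), and Nab2 was not called.

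Of 24 other immediate early genes, 23 were tested, with 5 higher and 3 lower in CPN-/- CRY1, 3 higher and 1 lower in CPN-/- CRY2 and 2 higher and 4 lower between the CRY lines. Their medians were 0.06, 0.06 and -0.04. The matricellular gene Ccn2 rose in both CRY lines, from 159 and 216 CPM to 404 and 506 (log2 fold change 1.28, adjusted p = 0.00409) and to 409 and 406 (1.12, adjusted p = 0.0127). Klf2, a zinc finger factor of the endothelium, rose in CPN-/- CRY1 (1.32, adjusted p = 0.00239), with Dusp1 (1.29, adjusted p = 0.017). The stress gene Gadd45b fell in both CRY lines, from 147 and 159 CPM to 60.3 and 58.9 (-1.36, adjusted p = 0.000354) and to 99.8 and 99.0 (-0.62, adjusted p = 0.0104). Arc and Trib1 rose in CPN-/- CRY2 (0.83, adjusted p = 0.0298, and 0.58, adjusted p = 0.0361) and were lower in CPN-/- CRY1 than there (-0.78 and -0.80), and Klf2 and Klf6 were higher in CPN-/- CRY1 than in CPN-/- CRY2 (0.91 and 0.77). The list therefore had called genes in both directions in each comparison.

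Of 15 genes with known AP-1 sites, 12 were tested, with 1 higher and 5 lower in CPN-/- CRY1 and 1 higher and 4 lower in CPN-/- CRY2, and 2 in each direction between the CRY lines. These stand against 11.2% higher and 13.1% lower, 2.58% and 4.08%, and 7.72% and 8.57% of all genes, and the list had medians of -0.13, -0.31 and -0.10. The matrix protein gene Spp1 fell in both lines, from 99.6 and 113 CPM to 14.1 and 13.7 (log2 fold change -2.94, adjusted p = 8.8e-05) and to 19.4 and 16.8 (-2.55, adjusted p = 0.000259). The metallothionein Mt2 fell as well, from 30.6 and 39.2 CPM to 17.9 and 15.3 (-1.07, adjusted p = 0.00599) and to 10.5 and 8.82 (-1.85, adjusted p = 0.0019). The crosslinking enzyme gene Lox fell in CPN-/- CRY1 (-1.03, adjusted p = 0.00668), where the protease gene Plau rose (0.48, adjusted p = 0.0142). The cell cycle gene Ccnd1 rose in CPN-/- CRY2 (0.64, adjusted p = 0.0225). The stromelysin Mmp3 fell in CPN-/- CRY1 (-3.29, adjusted p = 0.000253) and in CPN-/- CRY2 (-0.73, adjusted p = 0.0459), and differed between the CRY lines by -2.56 (adjusted p = 0.000642), lower with CRY1. The collagenase Mmp13 fell in both as well (-2.61, adjusted p = 0.00198, and -2.38, adjusted p = 0.00561). Mmp3 and Mmp13 had 19 to 186 and 7 to 60 counts per library.

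Of 12 genes with known Egr sites, 2 were called higher and 2 lower in CPN-/- CRY1, 3 lower in CPN-/- CRY2, and 3 in each direction between the CRY lines, with medians of 0.295, -0.14 and 0.04. Pdgfa, a growth factor for fibroblasts, rose in CPN-/- CRY1 from 20.6 and 23.99 to 35.4 and 33.3 CPM (log2 fold change 0.63, adjusted p = 0.0142). The tissue factor gene F3 (-1.03, adjusted p = 0.00148) and Vegfa (-1.02, adjusted p = 0.000755) fell there. Pdgfb and Tgfb1 fell in CPN-/- CRY2, from 8.52 and 10.8 to 1.87 and 1.89 CPM (-2.35, adjusted p = 0.00107) and from 12.04 and 12.4 to 3.64 and 4.37 CPM (-1.61, adjusted p = 0.00145), with F3 (-0.61, adjusted p = 0.0217). Egr1 itself was not called in either line, and its fitted value was above 0 in both.

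Over the 6 libraries, the genes outside the list whose log2(CPM + 0.5) was most like that of Fos were Arpc4 (Pearson r 0.99), Pfn1 (0.984) and Ccdc115 (0.977), among 11402 genes at 100 counts or more on average. Near to Jun were Ing3 (0.98) and Sfpq (0.978), and the nearest to Egr1 were Mettl25 (0.985), Zfp36 (0.983) and Fhl2 (0.979). Zfp36, an immediate early gene for an mRNA decay factor, was at 9.62 and 15.4 CPM in the CPN-/- libraries, at 19.8 and 21.4 with CRY1 and at 13.5 and 17.2 with CRY2. These are the highest of many correlations over 6 points that share lines, preparations and depth, and are given as a description. The range of most of the named genes was narrow, as for Arpc4 (70.8 to 91.4 CPM) beside the 1.42 to 5.38 of Fos.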

How the data were processed

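RNA of 3 mouse embryonic fibroblast lines, 2 libraries each, had been made into stranded mRNA libraries and sequenced in paired ends. Per the labels and the study's methods, the authors mapped reads to mm10 with RNA STAR and deposited raw counts per NCBI gene ID from featureCounts, with strand setting, annotation and treatment of multiply matched reads not given in the sources used here. Here, edgeR 4.0.16 (R 4.3.3) was fitted to all 6 libraries by line, with filterByExpr at its defaults (minimum count 10), TMM factors and the robust quasi-likelihood F test, two-sided, and genes were called at a Benjamini-Hochberg adjusted p under 0.05. DESeq2 1.42.0 and other settings were alternatives. The model was tested on simulated data in which the random spread was set the same for every library. In the measured data the CPN-/- libraries lay further apart than those of the CRY lines, which the simulation did not cover. Transcript lengths are of GENCODE, and symbols, positions and promoters of RefSeq (GRCm38.p6). Libraries came from separate RNA preparations of the same clones, so p-values measure the spread between preparations. The members and gene lists were chosen with earlier results of these data known. All 10 members are named. Of other lists, up to 4 called genes with at least 100 counts on average and the largest changes are named per comparison, or all called genes where 5 or fewer were called. Some genes that this rule or the likeness to a member would name are not reported here.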

Additional observations from a re-analysis of the deposited data

Results flagged for a closer look

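The 2 CRY lines differed from each other in 2 of the 10 genes by the direct test of that difference (edgeR's quasi-likelihood test in the fit of all 6 libraries). The log2 fold change of Fosl2 between CPN-/- CRY1 and CPN-/- CRY2 was -0.591 (adjusted p = 0.0326), lower with CRY1 in both libraries against both. That of Junb was 0.717 (adjusted p = 0.0421), higher with CRY1 in both libraries against both. With 1 library left out at a time, Fosl2 ranged from -0.64 to -0.54 (adjusted p up to 0.224) and Junb from 0.53 to 0.93 (adjusted p up to 0.274). The lines being 1 clone each, CRY1 against CRY2 and clone against clone cannot be told apart.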

How the results depend on the processing

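The number of members called was 1 in CPN-/- CRY1 against CPN-/-, 1 in CPN-/- CRY2 against CPN-/- and 2 between the CRY lines. In CPN-/- CRY1 against CPN-/- it was 2 with no filter on low counts and 2 by the DESeq2 Wald test, 3 with the length trend removed and 4 with the replicate number as a block. In CPN-/- CRY2 against CPN-/- it was 3 with the length trend removed and 2 with the replicate block. Between the CRY lines it was 3 with the block. With 1 library left out it ranged from 0 to 5, from 0 to 4 and from 0 to 2 (in the fits with 0 called by edgeR, 1 to 4 members had an unadjusted p under 0.05, and a lone library was assumed to vary like the other lines). The share of all genes called also changed with the fit, so these counts do not describe the members alone. In each comparison that share rose without either CPN-/- library and fell without any 1 library of the CRY lines. With the length trend removed it was 43.1% and 19.3% against CPN-/-, where the main fit had 24.3% and 6.66%. With the block it was 24.6%, 6.94% and 15.6% in the 3 comparisons, near the shares of the main fit. Whether libraries with the same replicate number were prepared together is not given. Over genes, the differences between replicate 2 and replicate 1 correlated at -0.13 for CPN-/- with CPN-/- CRY1. The correlation was 0.23 for CPN-/- with CPN-/- CRY2 and -0.09 between the CRY lines. With the block, Egr1 was called in all 3 comparisons (1.49, 0.85 and 0.65, adjusted p = 0.00115, 0.0261 and 0.0384), and Egr2 (1.16) and Junb (-0.50) in the first. Of 359 member values under alternatives, 294 kept direction and side of the threshold, 26 kept direction and passed only then, 16 no longer passed and 23 changed sign, all 23 from values that did not pass. Of these 23, 1 passed after the change, Fos in CPN-/- CRY2 against CPN-/- without CPN-/- replicate 2, in a fit that leaves 1 CPN-/- library. With the length trend removed (12478 genes in place of 14069), Jund was at 0.067 (CPN-/- CRY1) and 0.064 (CPN-/- CRY2) and Fos at 0.074 (CPN-/- CRY2) against CPN-/-, and Fosb at -0.001 and Jund at 0.003 between the CRY lines. Jun between the CRY lines was 0.007 with DESeq2's size factors and by its Wald test, 0.008 without a filter and 0.001 in the 4 libraries alone. With 1 library left out, signs changed for Jund (-0.227 to 0.002) in CPN-/- CRY1 against CPN-/-, for Fos (-0.698 to 0.935), Fosl2 (-0.286 to 0.105), Jund (-0.21 to 0.02) and Egr3 (-0.70 to 0.298) in CPN-/- CRY2 against CPN-/-, and for Fosb (-0.15 to 0.191), Fosl1 (-0.117 to 0.183), Jun (-0.129 to 0.12), Jund (-0.121 to 0.092) and Egr3 (-0.977 to 0.021) between the CRY lines. The cause was not tested. With 2 libraries a line, Fosb, Egr2 and Egr3 rest on at most 59 counts a library, and Fos, Egr1 and Egr2 spread most between the CPN-/- libraries.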
